A study of Rattus norvegicus with 9 samples.

Results

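Solute carriers are membrane proteins that move amino acids, sugars, ions, nucleosides, vitamins and metabolites across the plasma membrane, the lysosome and the inner mitochondrial membrane. They were taken here as every listed gene whose symbol begins with Slc or Slco and a digit, which gave 120 of the 5760 genes in 2 tables of rat heart RNA-seq. Of these, 86 were among the 4288 genes of the table with the Cal and Model libraries, 58 were among the 2458 genes of the table with the Cal and Con libraries, and 24 were in both. Rat RefSeq (GRCr8) lists 397 protein-coding genes with such a symbol, and 118 of the 120 matched one of them, so that 29.7% of the named rat solute carriers were listed in at least one table.

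The libraries came from hearts of male Sprague Dawley rats, 3 rats per group. In the Model and Cal groups a coronary artery, the left anterior descending, was ligated to induce heart failure. The Model group then received distilled water, and the Cal group received calycosin (Cal, a plant isoflavone) by mouth at 80 mg/kg per day for 28 days. The Control group, headed Con in the tables, had sham surgery without ligation and received distilled water like the Model group, over the same 28 days. RNA of heart tissue was sequenced after selection of polyadenylated RNA, and the paper does not state which region of the heart was taken. In such tissue, fewer cells of a type and less RNA per cell cannot be told apart.

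Values are normalized counts, that is, the reads of a gene divided by the size factor of its library, with factors set by the authors for each table alone. Both tables list only genes that passed the adjusted p-value threshold of the study's own DESeq2 test, so a carrier that is not listed was not measured here and the counts below describe genes that had already been selected for a difference. The headings of these tables contradict each other. Where the Cal and Model libraries are compared, averaging the 3 samples headed Model gives the authors' mean headed Cal, and averaging those headed Cal gives the mean headed Model. The other table has sample columns headed Cal and Con, and its mean column for the Cal columns is headed Model. The submitters also named this table for Model against Con. The paper describes a gene set of the same size as targets of its heart failure model. Both descriptions go with the mean column and not with the sample columns. The reads of the Cal libraries were identical in 986 of 986 genes that both tables list, so the same 3 libraries stand in both. Libraries are named below by their sample columns, and "higher" means higher in the Cal libraries. If the mean columns are named correctly, every direction between Cal and Model is exchanged and the second comparison is Model against Con.

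Reads on listed genes ranged from 2860826 to 3998471 per library in the Cal and Model table, of which solute carriers took 1.12% to 1.4%, and from 3270460 to 4659882 in the Cal and Con table, of which they took 3.7% to 3.99%. Within a group, the chi-square between replicate libraries was 11.6 to 104 per gene, where sampling noise alone gives about 1, so none was a second copy of another. The listed heart muscle markers were Myh6 and Ryr2 in the Cal and Con table and Nppa in the other, out of 10 markers, and Myh6, the alpha myosin heavy chain, stood at 335145 ± 1036 against 275029 ± 33746, log2 fold change 0.29 ± 0.08 (SE), adjusted p = 0.0103. Differences are given on the log2(normalized count + 1) scale as Cal minus the other group, tested with limma across all listed genes of a table with Benjamini-Hochberg adjustment. A gene was called when its adjusted p was under 0.05 and its log2 fold change was beyond 1. An exact permutation test of 3 against 3 libraries cannot give a two-sided p below 0.1 and was not used for single genes.

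Amino acid uptake in the heart runs through exchangers, in which a light chain of the SLC7 family pairs with the heavy chain encoded by Slc3a2, and through sodium-coupled carriers of the SLC1, SLC6 and SLC38 families. Energy metabolism depends on the SLC2 glucose carriers, the SLC16 monocarboxylate carriers and the SLC25 carriers of the inner mitochondrial membrane, which exchange ADP for ATP and admit phosphate and acylcarnitine. The SLC39 proteins bring zinc, iron and manganese into the cytosol, and exchangers and cotransporters of the SLC4, SLC8, SLC9 and SLC12 families set sodium, calcium, chloride and pH.

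The rat promoters of 3 carriers are shown because their genes were called and belong to groups described below with their partner genes. Slc7a5 and Slc1a4, amino acid carriers, were called lower in the Cal than in the Model libraries, and Slc25a25, a mitochondrial carrier, had the smallest adjusted p of all solute carriers in the Cal and Con table. Each sequence holds the 250 bases before the RefSeq start site in GRCr8, written on the gene's strand, at chr19:66872413-66872662 (minus strand) for Slc7a5, chr14:98761563-98761812 (minus strand) for Slc1a4 and chr3:36116582-36116831 (minus strand) for Slc25a25. Capitals mark, on either strand, the matches named next for each promoter. Slc7a5 holds the E box CACGTG, a metal response element of the form TGCGCNC, and several copies of the GC box GGGCGG. Slc1a4 holds the amino acid response element TGATGNAA near the far end of the stretch and the E box CACGTG close to the start site. Slc25a25 holds the cAMP response element TGACGTCA and, nearer to the start site, the antioxidant response core TGACNNNGC, and it also has matches of GGGCGG and TGCGCNC that are left in lower case where they do not overlap it.
Slc7a5: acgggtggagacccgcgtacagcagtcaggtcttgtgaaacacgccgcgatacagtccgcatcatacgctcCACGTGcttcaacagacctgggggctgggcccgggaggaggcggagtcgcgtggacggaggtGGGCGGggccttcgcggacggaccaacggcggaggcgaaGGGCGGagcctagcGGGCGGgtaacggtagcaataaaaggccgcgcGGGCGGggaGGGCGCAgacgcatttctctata
Slc1a4: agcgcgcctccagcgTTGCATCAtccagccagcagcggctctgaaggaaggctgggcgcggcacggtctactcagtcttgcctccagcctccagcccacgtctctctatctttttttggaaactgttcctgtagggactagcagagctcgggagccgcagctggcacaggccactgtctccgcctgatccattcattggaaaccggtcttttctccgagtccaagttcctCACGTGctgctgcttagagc
Slc25a25: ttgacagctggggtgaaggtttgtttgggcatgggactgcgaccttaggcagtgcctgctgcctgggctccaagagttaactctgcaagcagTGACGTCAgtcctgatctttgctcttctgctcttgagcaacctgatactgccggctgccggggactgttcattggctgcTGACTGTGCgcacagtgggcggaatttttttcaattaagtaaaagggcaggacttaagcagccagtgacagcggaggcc

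Among the 95 carriers with an entry in the rat promoter table, 4 held TGATGNAA, the composite element of the amino acid response, which is 4.21% against 3.27% of all 27457 promoters, and the 4 were Slc1a4, Slc35a2, Slc7a1 and Slc9a9. Of the carriers called between Cal and Model, 1 of 21 called lower (4.76%, Slc1a4) and 1 of 15 called higher (6.67%, Slc9a9) held it. CACGTG, the E box, was in 14.7% of the carriers' promoters and 5.79% of all promoters, and GGGCGG, the GC box, was in 58.9% and 32.4%. TGACNNNGC, the core of the antioxidant response element, was in 16.8% and 10.2%, TGCGCNC and TGCACNC, both forms of the metal response element, were in 23.2% and 15.8% against 12.7% and 10.2%, and TTCNNNGAA, a STAT site, was in 6.32% and 7.52%. TGACGTCA, the cAMP response element, was found in 2 of the 95, Slc25a25 and Slc25a33, against 1.7% of all promoters, and the NF-kB site in 0 of the 95 against 1.07%. All were searched on both strands. TGCGCNC can overlap GGGCGG, and a match describes letters only.

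Between the Cal and Model libraries, 48 of the 86 listed carriers were called, 22 higher and 26 lower. Of all 4288 listed genes 60.1% were called, 28.4% higher and 31.6% lower, and the carriers' shares of 55.8%, 25.6% and 30.2% were near that background. The median log2 fold change of the carriers was 0.59 against -0.52 over all listed genes. Positive values were found in 54.7% of the carriers and 46% of all listed genes. Genes were listed only after passing a threshold, so values near 0 are scarce. A median can then move far where these shares differ little. The splits of calls depended on the scaling, since median-ratio scaling over the listed genes gave 32 carriers higher and 21 lower and turned the split of all genes from 1219 higher and 1356 lower to 1646 higher and 1047 lower. That scaling raised the median of all genes by 0.30, TMM by 0.19 and quantile normalization by 0.16. Within this table the values of the 3 Cal and the 3 Model libraries did not overlap in 85 of the 86 carriers, which was the case for 98.2% of all listed genes, and the exception was Slc25a30. Of 30 carriers named for their known roles in the heart, 20 were listed, 9 in this table and 15 in the other, and their values are given below with those of the members that differed most.

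**Figure D1:**
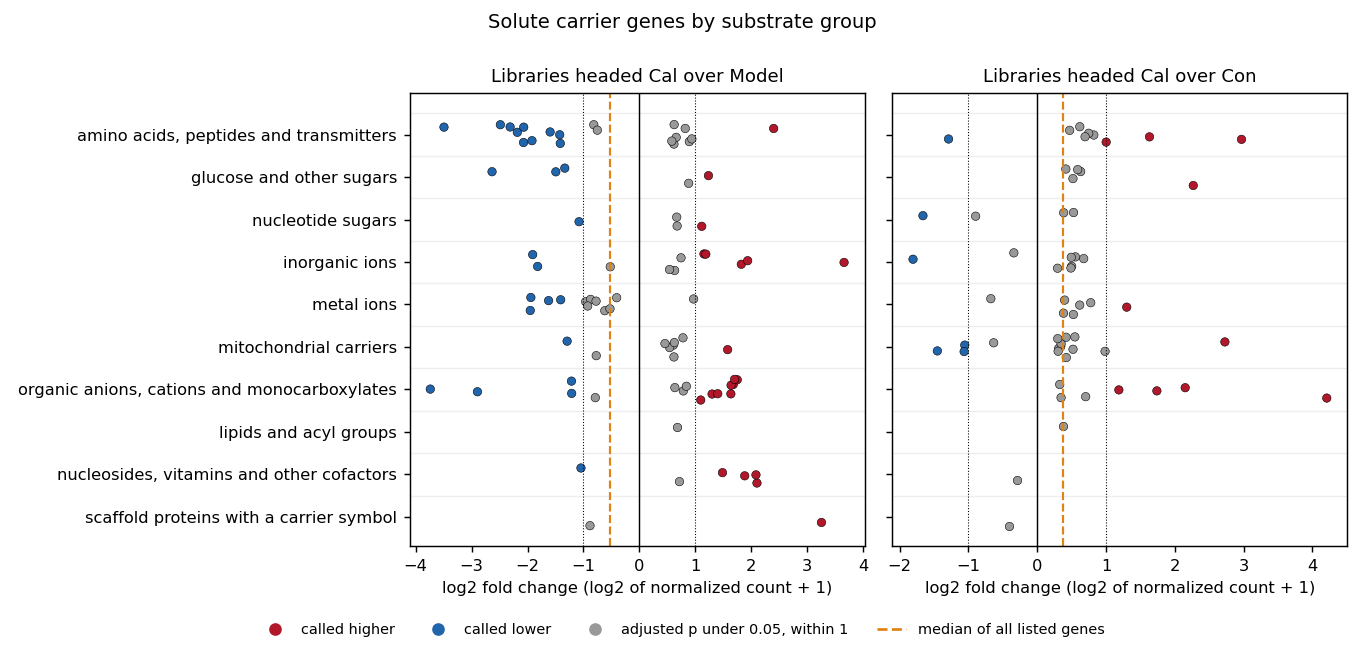
Log2 fold change (horizontal axis, log2 of normalized count + 1) of every listed solute carrier by substrate group, for the Cal over the Model libraries (left, 86 genes) and the Cal over the Con libraries (right, 58 genes). Red and blue points were called higher and lower, grey points passed the adjusted p within a log2 fold change of 1, and the dashed orange line is the median of all listed genes, at -0.52 on the left and 0.37 on the right. Metal ion carriers lie left of zero on the left panel in 11 of 12 cases, and with quantile normalization in 10.

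Amino acid and peptide carriers formed the largest group, with 20 listed in the Cal and Model table, and 10 of them were called lower and 1 higher. These are 50% and 5% of the group, where 31.6% and 28.4% of all listed genes were called. Their median log2 fold change was -1.12, and 12 of the 20 lay below the median of all genes. Slc7a5, the light chain that carries large neutral amino acids (mouse identifier ENSMUSG00000040010), was 76.6, 116 and 114 in the Cal libraries and 424, 830.5 and 517 in the Model libraries (log2 fold change -2.49 ± 0.29 (SE), adjusted p = 0.000435). Its heavy chain partner Slc3a2 was 532, 543 and 558 in the Cal libraries and 1279.7, 1866 and 1282 in the Model libraries (log2 fold change -1.41 ± 0.18 (SE), adjusted p = 0.000554). In both chains every Model library was above every Cal library.

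Slc7a11, the light chain that exchanges cystine for glutamate, was 8.30, 27.2 and 14.5 in the Cal libraries and 68.03, 97.6 and 43.1 in the Model libraries (log2 fold change -2.07 ± 0.48 (SE), adjusted p = 0.00514). Slc1a4, a sodium-coupled carrier of alanine, serine and cysteine, was 33.2, 26.3 and 25.6 in the Cal libraries and 137, 174 and 94.9 in the Model libraries (log2 fold change -2.18 ± 0.28 (SE), adjusted p = 0.000623). Slc1a3, a glutamate carrier, stood at 36.9, 15.02 and 29.9 against 88.6, 89.02 and 63.3 (log2 fold change -1.60 ± 0.36 (SE), adjusted p = 0.00499). All of these were lower in each Cal library than in any Model library. The same held for Slc6a12, Slc6a4 and Slc6a9, carriers of betaine, serotonin and glycine, with log2 fold changes of -2.31, -2.07 and -1.43, of which Slc6a4 had normalized counts of only 1.84, 1.88 and 3.42 against 14.04, 15.9 and 9.58 and was within the fold limit with a pseudocount of 10 (-0.90).

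Slc15a3, a lysosomal carrier of histidine and peptides, had the lowest log2 fold change of the group at -3.49 ± 0.35 (SE, adjusted p = 0.000285). It was 222, 226 and 375 in the Cal libraries and 1802, 4305 and 3501 in the Model libraries, and the Model libraries themselves ranged widely. Slc43a3, placed here by its family and also known to carry purine nucleobases, had the highest level of the group per kilobase of gene length and was 1596, 1409.8 and 1914 in the Cal libraries and 5272, 7502 and 5909.9 in the Model libraries (log2 fold change -1.92 ± 0.18 (SE), adjusted p = 0.000258). Slc1a1 and Slc7a6 were also negative, at -0.82 and -0.75 within the fold limit, and 8 members were positive. Slc6a6, the taurine carrier, was 1369, 1347 and 1551 in the Cal libraries and 579.9, 856 and 820.4 in the Model libraries (log2 fold change 0.94 ± 0.18 (SE), adjusted p = 0.00255), which fell short of the fold limit with all libraries and passed it without Model library 2 (1.04) or Model library 3 (1.01). All 4 SLC38 carriers were positive, and Slc38a11 was the only member of this group called higher, at 27.7, 21.6 and 14.5 against 5.40, 1.22 and 3.83 (log2 fold change 2.40 ± 0.49 (SE), adjusted p = 0.00332). Slc38a3, a glutamine carrier, was 1002, 1374 and 958 against 542, 538 and 824, with a log2 fold change of 0.82 that reached 1.02 without Model library 3.

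Genes of the amino acid response, which is known to raise several of these carriers, were counted beside them. Of 10 genes on that list 7 were listed in the Cal and Model table, and 5 were called lower and none higher. Of all listed genes, 31.6% were called lower and 28.4% higher. Asns, asparagine synthetase, was 64.6 ± 15.98 against 628 ± 332, log2 fold change -3.14 ± 0.42 (SE), adjusted p = 0.000741, as mean ± SD of 3 libraries. Trib3, Psat1, Sesn2 and Eif4ebp1 had log2 fold changes of -3.76, -2.14, -1.19 and -1.10, and Atf4, the transcription factor of the response, had -0.87. Of 12 genes for cystine and glutathione metabolism 5 were listed, all negative, and Gclm and Txnrd1 were called lower at -1.18 and -1.06. Whether these genes and the carriers share a control was not tested.

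Against the Con libraries, 16 of the 58 listed carriers were called, 10 higher and 6 lower. Of all 2458 listed genes 29% were called, 18% higher and 10.9% lower, and the carriers' shares were 27.6%, 17.2% and 10.3%. Their median log2 fold change was 0.49 against 0.37 over all listed genes, and 46 of the 58 were positive, or 34 with quantile normalization, which is 79.3% with the authors' scaling against 60.7% of all listed genes. The median of all genes fell by 0.28 with median-ratio scaling, by 0.31 with quantile normalization and by 0.23 with TMM, and the split of all calls turned from 443 higher and 269 lower to 342 higher and 447 lower with median-ratio scaling, while the carriers gave 8 higher and 7 lower. The libraries of the 2 groups did not overlap in 57 of the 58 carriers, compared with 97.4% of all listed genes.

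Amino acid carriers listed against Con numbered 9, of which 3 were called higher and 1 lower, and 8 were above the median of all genes. Of all genes listed against Con, 18% were called higher and 10.9% lower. Slc7a11 rested on few reads, 9, 29 and 17 in the Cal libraries and 2, 0 and 3 in the Con libraries, a ratio of 11.4 with an exact 95% counting interval of 4.6 to 36.5 (limma adjusted p = 0.00445). Without Con library 2, which had no read, its fitted log2 fold change moved from 2.97 to 2.38. Slc15a3 was 249, 254 and 418 in the Cal libraries and 129, 122.8 and 54.7 in the Con libraries (log2 fold change 1.63 ± 0.35 (SE), adjusted p = 0.00342), and on the mouse map it overlaps the listed gene Tmem132a on the opposite strand. Slc7a5 overlapped between the groups at 85.6, 130.5 and 127 against 85.7, 51.1 and 66.8, was within the fold limit (log2 fold change 0.75 ± 0.25, SE), and its adjusted p of 0.018 rose to as much as 0.111 under other scalings or without single libraries. Slc1a1, a glutamate carrier, was at the fold limit with 1.00, and the call was lost without Cal library 2 or 3 or Con library 1 or 2, with values from 0.85 to 0.96, and also with quantile normalization (0.98), median-ratio scaling (0.72), TMM (0.78) and a pseudocount of 10 (0.87). Slc38a3, the highest of the group per kilobase, was 1120.4, 1541 and 1068 against 881, 909 and 862 (log2 fold change 0.47 ± 0.14 (SE), adjusted p = 0.011), and its adjusted p was up to 0.756 across the scalings. Slc43a1, which carries large neutral amino acids, was called lower at 25.8, 14.7 and 23.8 against 50.3, 62.9 and 45.5 (log2 fold change -1.29 ± 0.29 (SE), adjusted p = 0.00413). Of the amino acid response genes 5 were listed there, with Atf3 (3.66) and Chac1 (1.54) called higher and Trib3 (-1.37) called lower. Of the cystine and glutathione genes 3 were listed, and Chac1, which stands on both lists, was the 1 called.

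The comparisons share the 3 Cal libraries, so their directions for a gene listed in both are linked, and the levels are given side by side. To set the Con libraries beside the Model libraries, their values were multiplied by 0.894, the ratio that makes the Cal libraries equal in both tables, and no test was made between Con and Model. On that scale Slc7a5 stood at 76.7, 45.7 and 59.7 in the Con libraries and Slc7a11 at 1.67, 0 and 2.72. Slc15a3 was 115, 109.8 and 48.9 there, against at least 1802 in each Model library.

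**Figure D2:**
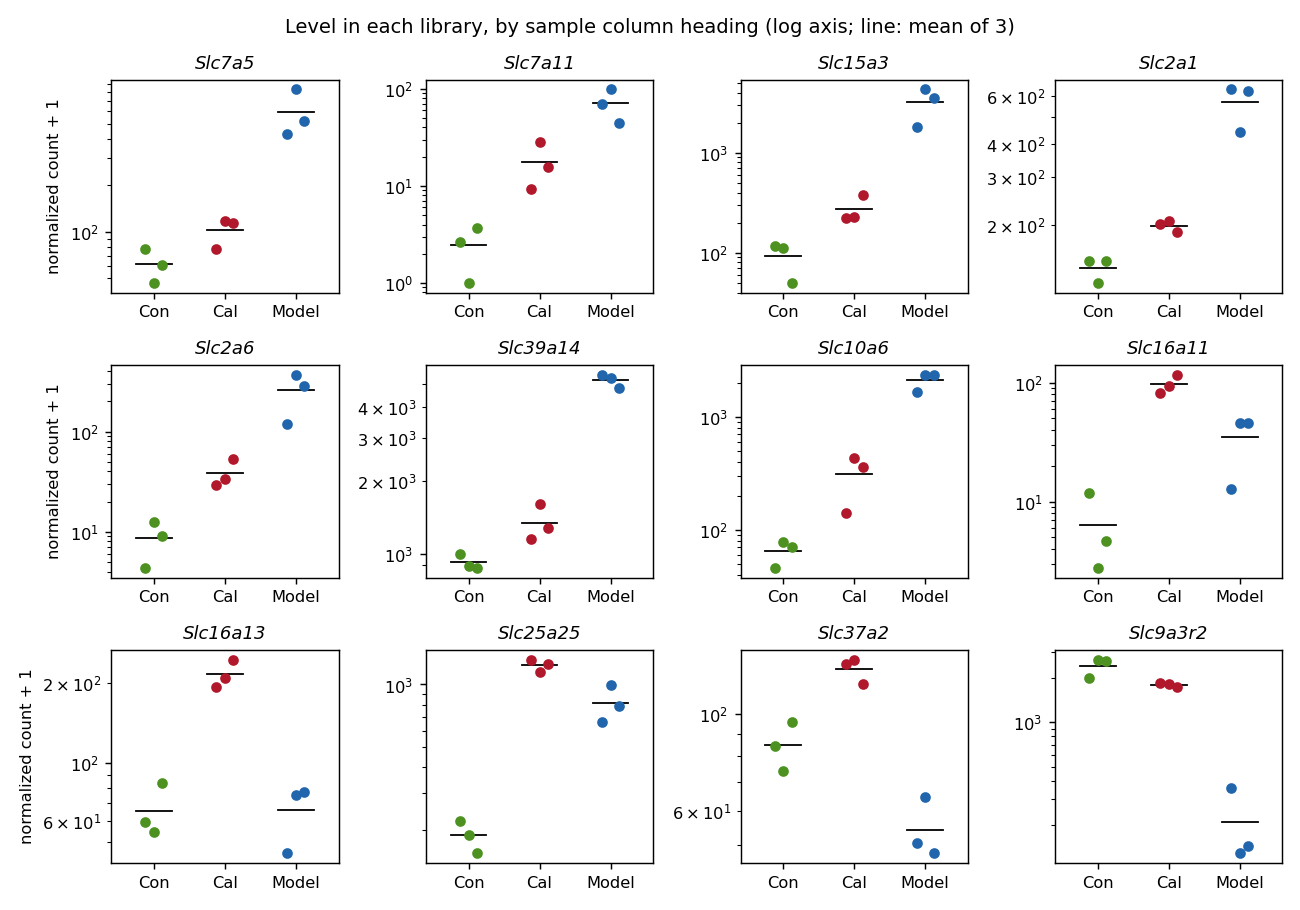
Normalized count + 1 (log axis) of 12 carriers listed in both tables, 1 point per library and a line at the mean of the 3, with libraries named by their sample columns and Con values set on the scale of the Cal and Model table. Slc39a14 lies between 876 and 1005 in Con, 1148 and 1609 in Cal, and 4772 and 5442 in Model, while Slc16a11 and Slc25a25 are highest in Cal.

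Glucose and sugar carriers numbered 5 in each table. Between Cal and Model, 3 were called lower and 1 higher, where 31.6% of all listed genes were called lower and 28.4% higher. Slc2a1, the ubiquitous glucose carrier GLUT1 (ENSMUSG00000028645), was 200.2, 206 and 187 in the Cal libraries and 633, 440.2 and 627 in the Model libraries (log2 fold change -1.49 ± 0.18 (SE), adjusted p = 0.000535). Slc2a6, a lysosomal member of the same family, was 28.6, 32.9 and 52.1 in the Cal libraries and 119, 369.5 and 286 in the Model libraries (log2 fold change -2.63 ± 0.44 (SE), adjusted p = 0.00159), with a wide spread among the Model libraries. Slc45a3 was close to constant within each group at 96.9, 84.5 and 85.4 against 229, 221 and 226 (log2 fold change -1.33 ± 0.16 (SE), adjusted p = 0.000542). Slc37a2, a sugar phosphate carrier of the endoplasmic reticulum, went the other way at 129, 132 and 116 against 49.7, 63.4 and 46.96 (log2 fold change 1.23 ± 0.21 (SE), adjusted p = 0.00164).

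Against Con, all 5 were positive (4 with quantile normalization) and above the median of all genes, and only Slc2a6 was called, at 31.98, 36.8 and 58.1 against 3.73, 12.8 and 9.11 (log2 fold change 2.27 ± 0.45 (SE), adjusted p = 0.00271). Slc2a1 was 224, 232 and 209 in the Cal libraries and 164, 136 and 164 in the Con libraries (log2 fold change 0.52 ± 0.14 (SE), adjusted p = 0.00798). Under the other 3 scalings Slc2a1 did not pass the threshold, with an adjusted p of up to 0.169. Slc2a4, the insulin-responsive GLUT4 of muscle and fat, was 5766, 5502 and 5829 in the Cal libraries and 4705, 3757 and 4404 in the Con libraries (log2 fold change 0.42 ± 0.09 (SE), adjusted p = 0.00394). This difference was close to the median of all genes, was -0.01 with quantile normalization, and its adjusted p was up to 0.878 across the scalings. Per kilobase of gene length Slc2a4 stood at 1639 in the Cal and 1233 in the Con libraries, below only 4 mitochondrial carriers among the 58 members. Of 23 glycolysis genes, 13 were listed in that table and all were positive with the authors' scaling, 1 of them called (Pfkfb3, 4.12), and their median was 0.37, as over all listed genes. Between Cal and Model 3 were listed, with Pfkfb2 called higher at 1.85 and Pfkp and Pfkfb3 within the fold limit at -0.83 and -0.93.

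Carriers of inorganic ions numbered 11 between Cal and Model, 5 called higher (45.5%) and 2 lower (18.2%). Of all listed genes, 28.4% were called higher and 31.6% lower. Slc26a10, a member of the anion exchanger family, had the highest log2 fold change of all carriers in that table and was 179, 149 and 231 in the Cal libraries and 9.72, 8.54 and 29.7 in the Model libraries (log2 fold change 3.66 ± 0.46 (SE), adjusted p = 0.000588). Slc12a7, a potassium and chloride cotransporter and the group's highest carrier per kilobase, was 2990.5, 3123 and 3143 in the Cal libraries and 1754, 1838 and 2465 in the Model libraries with a log2 fold change of 0.63 ± 0.16 (SE). Slc8b1, the sodium and calcium exchanger of mitochondria, was 146, 106 and 131 against 61.6, 41.5 and 65.2 (log2 fold change 1.19 ± 0.25 (SE), adjusted p = 0.00379), and its log2 fold change without Model library 2 was 0.99. Slc9a9, a proton exchanger of endosomes, and Slc24a3, a potassium-dependent sodium and calcium exchanger, were called higher at 1.93 and 1.82. Slc4a8 and Slc12a8 were called lower at -1.82 and -1.91. Slc12a8 stood at only 6.46, 7.51 and 7.69 in the Cal libraries against 25.9, 35.4 and 28.8 in the Model libraries. With a pseudocount of 10 its log2 fold change was -1.21.

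Against Con 8 ion carriers were listed, and 1, the intestinal chloride exchanger gene Slc26a3, was called, lower at 13.4, 9.47 and 5.71 against 27.95, 45.2 and 31.4 (log2 fold change -1.81 ± 0.38 (SE), adjusted p = 0.00325). Slc8a1, the sodium and calcium exchanger NCX1 and the group's highest carrier per kilobase, was 2465, 2729 and 2441 in the Cal libraries and 2189, 1419 and 1886 in the Con libraries (log2 fold change 0.50 ± 0.15 (SE), adjusted p = 0.0116). Slc4a3, an anion exchanger of heart muscle, was 3730.5, 3732 and 3626 against 2829.9, 2323 and 2708 (log2 fold change 0.50 ± 0.09 (SE), adjusted p = 0.00168). Both were within the fold limit. Slc8a1 did not pass the threshold under any of the other 3 scalings (adjusted p of 0.168 to 0.91), and Slc4a3 did not with quantile normalization (0.934). Of 10 genes for ATP-driven pumps 3 were listed against Con, among them Atp2a2, the calcium pump of the sarcoplasmic reticulum, with a log2 fold change of 0.26, and 5 between Cal and Model, of which Atp1b2 was called higher (1.89) and Atp1b3 and Atp2b4 lower (-1.25 and -1.46).

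Metal ion carriers had mostly negative log2 fold changes between Cal and Model. Of 12 listed, 11 (91.7%) were negative, or 10 with quantile normalization, where 54% of all listed genes were negative. The 4 called lower (33.3%) were near the 31.6% of all listed genes, and 10 lay below the median of all genes. The SLC39 importers accounted for the 4 calls, and all 6 listed SLC39 genes were negative. Slc39a14, which imports zinc, manganese and iron not bound to transferrin (ENSMUSG00000022094), was 1148, 1609 and 1275 in the Cal libraries and 5442, 5251 and 4772 in the Model libraries (log2 fold change -1.95 ± 0.16 (SE), adjusted p = 0.000178). Its groups stood far apart, with little spread among the Model libraries. Slc39a8, its closest relative in function, was 82.1, 111 and 46.1 in the Cal libraries and 309, 198 and 207 in the Model libraries (log2 fold change -1.62 ± 0.35 (SE), adjusted p = 0.00381). Slc39a10 was 238, 199 and 216 against 847, 554 and 411 (log2 fold change -1.41 ± 0.26 (SE), adjusted p = 0.00229), and Slc39a2, at the low end of detection, was 11.99, 9.39 and 3.42 against 16.2, 57.3 and 32.6 (log2 fold change -1.94 ± 0.58 (SE), adjusted p = 0.0129).

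Slc39a1, the highest metal carrier per kilobase, was 1434, 1544 and 1611 in the Cal libraries and 2688, 2843 and 2872 in the Model libraries (log2 fold change -0.87 ± 0.12 (SE), adjusted p = 0.000791), within the fold limit, and with quantile normalization its adjusted p was 0.0599. Slc39a6 and Slc30a4, a zinc exporter into vesicles, had log2 fold changes of -0.78 and -0.96, and Slc30a4 passed the fold limit without Cal library 2 (-1.05) or Model library 3 (-1.23). Slc11a2, the divalent metal carrier DMT1, was 464, 664 and 636 against 759, 819.5 and 1144 (log2 fold change -0.62 ± 0.21 (SE), adjusted p = 0.0218), and its adjusted p was over 0.05 with all 3 other scalings and without Cal library 1 or Model library 3, up to 0.312 with quantile normalization. The SLC41 magnesium carriers divided, with Slc41a2 at -0.93, Slc41a1 at -0.41, which turned to 0.09 with quantile normalization, and Slc41a3 at 0.97 as the 1 positive member of the group. Without Model library 2 or 3, Slc41a3 passed the fold limit at 1.04 and 1.10.

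**Figure D3:**
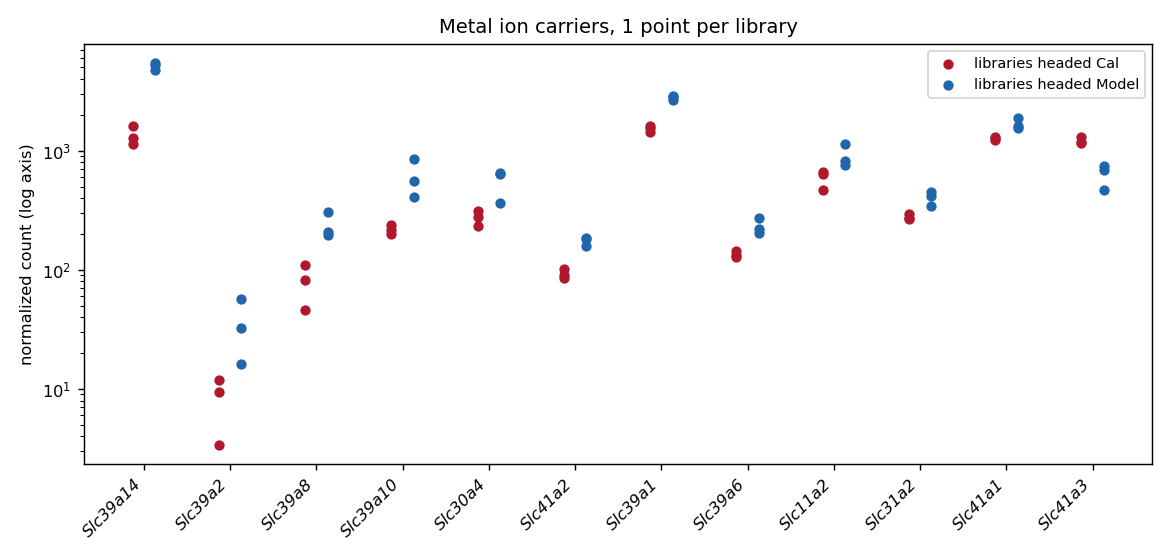
Normalized counts (log axis) of the 12 metal ion carriers in the 3 Cal libraries (red) and the 3 Model libraries (blue), ordered by log2 fold change. The Model points lie above the Cal points for every gene but Slc41a3, and the lowest log2 fold changes are those of Slc39a14 and Slc39a2, at -1.95 and -1.94, of which Slc39a2 has widely spread points.

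Genes of iron and zinc handling were counted beside these carriers. Of 17 on the list 8 were listed between Cal and Model, 6 called lower and 1 higher, where 31.6% and 28.4% of all listed genes were called. Mt1, a zinc-binding metallothionein, was 5841 ± 2146 against 39902 ± 913, log2 fold change -2.84 ± 0.27 (SE), adjusted p = 0.000258, as mean ± SD of 3 libraries. Mt2, Steap4, Hmox1, Cp and Hamp were also called lower, with log2 fold changes of -3.13, -3.37, -2.39, -2.30 and -1.92. Tfrc, the transferrin receptor through which bound iron enters, was called higher at 2705 ± 409.6 against 675 ± 138, log2 fold change 2.01 ± 0.20 (SE), adjusted p = 0.00027. Fth1, a ferritin chain, had -0.59.

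Against Con 7 metal carriers were listed, 6 of them positive (4 with quantile normalization) and 1 called. The called gene was Slc41a2 at 94.9, 101 and 112 against 45.7, 40.3 and 37.5 (log2 fold change 1.30 ± 0.19 (SE), adjusted p = 0.000615). Slc39a14 was 1284, 1804 and 1422 in the Cal libraries and 1124, 1001 and 979.8 in the Con libraries (log2 fold change 0.53 ± 0.13 (SE), adjusted p = 0.00635), and its adjusted p was up to 0.63 across the scalings. Slc39a1 was 1604, 1731 and 1796 against 1202, 998 and 1149.8 (log2 fold change 0.62 ± 0.10 (SE), adjusted p = 0.00106), and with quantile normalization its adjusted p was 0.198. Slc39a10 was lower in Cal than in both other groups, at 266, 223 and 241 against 390.4, 393 and 381 against Con (log2 fold change -0.67 ± 0.12 (SE), adjusted p = 0.00151). Of the iron and zinc genes 5 were listed, and Mt1, Mt2 and Hamp were called higher, Mt1 at 1.87, while Mt2 had no read in any Con library.

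Mitochondrial carriers were the largest group against Con, with 15 of 58 listed. Of these 1 was called higher and 3 lower, and 6 of the 15 lay above the median of all genes and 9 below. The calls were 6.67% higher and 20% lower, where 18% and 10.9% of all listed genes were called. Of the uncalled members Slc25a30 was at -0.63 and Slc25a33 at 0.99, and the other 9 were between 0.30 and 0.55, around the median of 0.37. Slc25a25, which exchanges ATP-magnesium for phosphate under the control of calcium (ENSMUSG00000026819), was 1470.1, 1287 and 1399.7 in the Cal libraries and 247, 211 and 172 in the Con libraries (log2 fold change 2.73 ± 0.14 (SE), adjusted p = 2.75e-06). All 3 Cal libraries stood far above the Con libraries, and the log2 fold change stayed at 2.44 or above under the 3 scalings plotted for this group. Slc25a24, which carries the same substrates, went the other way at 121, 121 and 105 against 224, 234 and 265 (log2 fold change -1.05 ± 0.14 (SE), adjusted p = 0.000463), and its log2 fold change fell to -0.99 without Cal library 3 and -0.98 without Con library 3. Slc25a45 and Slc25a27 were also called lower, at 35.1, 21.05 and 35.2 against 78.3, 83.5 and 87.05 (log2 fold change -1.45 ± 0.25 (SE), adjusted p = 0.00154) and 34.04, 24.2 and 29.5 against 44.7, 70.7 and 73.9 (log2 fold change -1.06 ± 0.27 (SE), adjusted p = 0.00662). Slc25a27 was within the fold limit without Cal library 2, Con library 2 or Con library 3, at -0.94, -0.96 and -0.93, and with a pseudocount of 10 (-0.88), as was Slc25a24 with that pseudocount (-0.999). Slc25a33, a pyrimidine nucleotide carrier, was just inside the fold limit with 0.99 ± 0.12 (SE), at 355, 348 and 376 against 171, 198 and 175, and was over it without Cal library 2 (1.01) or Con library 2 (1.05).

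The carriers that serve oxidative phosphorylation had by far the highest levels among the listed solute carriers. Slc25a4, the adenine nucleotide translocator ANT1 of heart and muscle (ENSMUSG00000031633), was 80302, 82996 and 79716 in the Cal libraries and 55026, 55112 and 56093 in the Con libraries (log2 fold change 0.55 ± 0.05 (SE), adjusted p = 6.99e-05). Per kilobase of gene length this was 34426 in the Cal and 23549 in the Con libraries, followed by Slc25a3 with 5081 and 3994, Slc25a11 with 3861 and 3052, and Slc25a5 with 2613 and 2122. Slc25a3, the phosphate carrier, was 27459, 28424 and 28715 against 22559, 21297 and 22644 (log2 fold change 0.35 ± 0.06 (SE), adjusted p = 0.0013), and Slc25a11, the oxoglutarate and malate carrier, was 7834, 8221 and 8498 against 6549, 5862 and 6999 (log2 fold change 0.34 ± 0.08 (SE), adjusted p = 0.00519). Slc25a5, the translocator ANT2, was 4005, 4700.1 and 4197 against 3658, 3287 and 3532 (log2 fold change 0.30 ± 0.08 (SE), adjusted p = 0.00959). Its sequence is related to that of Slc25a4, so some reads may have been split between these genes. Slc25a20, which exchanges carnitine for acylcarnitine, was 2939, 3198 and 3271 against 2514, 2379 and 2683 (log2 fold change 0.31 ± 0.08 (SE), adjusted p = 0.007).

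The direction of these small differences followed the scaling. With quantile normalization Slc25a5, Slc25a11 and Slc25a20 were negative at -0.15, -0.09 and -0.17, Slc25a3 was at 0 and Slc25a4 at 0.04. With median-ratio scaling Slc25a4 remained past the threshold, with a log2 fold change of 0.26 (limma adjusted p = 0.00228), whereas Slc25a3 was at 0.06 (limma adjusted p = 0.292). Relative to the median of all genes, Slc25a4 was above and Slc25a3 and Slc25a5 were below under the authors' scaling and median-ratio scaling, while Slc25a3 and Slc25a4 were above and Slc25a5 below with quantile normalization.

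**Figure D4:**
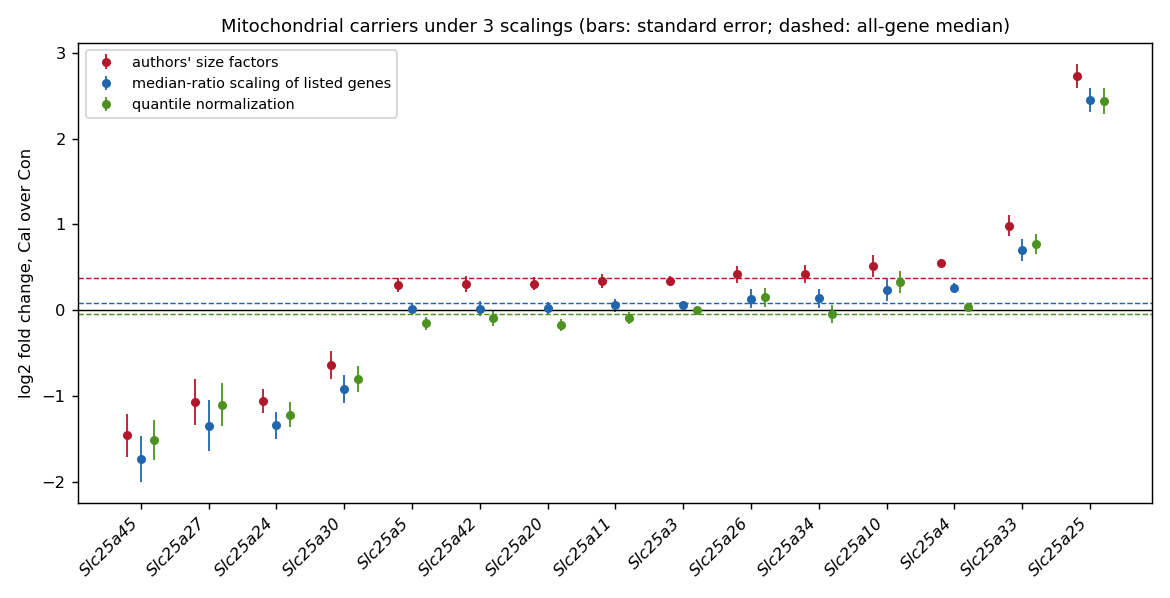
Log2 fold change of the 15 listed mitochondrial carriers, Cal over Con (vertical axis), with the authors' size factors (red), median-ratio scaling (blue) and quantile normalization (green). Bars are standard errors and dashed lines the median of all listed genes, at 0.37, 0.09 and -0.04. Slc25a25 stands above and Slc25a24, Slc25a27, Slc25a30 and Slc25a45 below these medians under all 3, and the 9 carriers from Slc25a5 to Slc25a4 on the axis lie near them.

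Between Cal and Model 9 mitochondrial carriers were listed, 7 of them positive. Slc25a29, a carrier of basic amino acids, was called higher at 109.8, 128 and 112 against 29.2, 25.6 and 74.8 (log2 fold change 1.58 ± 0.40 (SE), adjusted p = 0.00738). Slc25a22, a glutamate carrier and the highest of the group per kilobase, was called lower at 601, 817 and 717 against 836, 2484 and 2496 (log2 fold change -1.29 ± 0.41 (SE), adjusted p = 0.0165), with Model library 1 near the Cal libraries. The call was lost without Cal library 1 (adjusted p = 0.0532), Model library 2 (0.0604) or Model library 3 (0.0685), and with quantile normalization (log2 fold change -0.85) and median-ratio scaling (-0.99). Slc25a25 was 1314, 1148 and 1255 in the Cal libraries and 662, 998 and 784 in the Model libraries (log2 fold change 0.62 ± 0.17 (SE), adjusted p = 0.0104) and on the same scale 221, 189 and 154 in the Con libraries. Slc25a42, the coenzyme A carrier, was 1005, 1049 and 1025 against 512, 567 and 738 with a log2 fold change of 0.78 ± 0.16 (SE). Slc25a30 overlapped between the groups, at 139, 121 and 158 against 305, 287 and 153.

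Carriers of organic anions, cations and monocarboxylates were called in both directions between Cal and Model, with 8 of 16 higher and 4 lower. These are 50% and 25%, where 28.4% and 31.6% of all listed genes were called. All 6 SLC16 genes were positive. Slc16a13, a monocarboxylate carrier of unsettled substrate, was 193, 209 and 245 in the Cal libraries and 44.3, 74.4 and 76.7 in the Model libraries (log2 fold change 1.75 ± 0.26 (SE), adjusted p = 0.000988). Its neighbour Slc16a11 was 80.3, 92.9 and 116 in the Cal libraries and 11.9, 45.1 and 45.05 in the Model libraries (log2 fold change 1.68 ± 0.50 (SE), adjusted p = 0.0135), and without Model library 1 its log2 fold change was 1.06. On mouse chromosome 11 the ends of these genes are 372 bases apart on opposite strands, and whether the counting used strand was not given in the sources used here. Slc16a1, the lactate carrier MCT1 and the highest of the group per kilobase, was 3277, 4102 and 3326 against 1949, 1969.5 and 2280.2 (log2 fold change 0.78 ± 0.15 (SE), adjusted p = 0.00243). All 3 SLC22 genes were called higher. Slc22a23 was 229, 242 and 250.2 against 73.4, 75.6 and 81.5 (log2 fold change 1.63 ± 0.16 (SE), adjusted p = 0.000287), Slc22a3, an organic cation carrier, had 1.09, and Slc22a17, also described as a receptor for lipocalin 2, had 1.64 at normalized counts of 21.2, 23.5 and 25.6 against 5.40, 6.10 and 9.58. Slc22a3 was within the fold limit with quantile normalization (0.96), and with a pseudocount of 10 so were Slc22a3 (0.998) and Slc22a17 (0.98).

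Slc10a6, a carrier of sulfated steroids, was the opposite case at 141, 433 and 360.4 in the Cal libraries and 1658, 2367 and 2332 in the Model libraries (log2 fold change -2.89 ± 0.40 (SE), adjusted p = 0.000805). Slc13a3, a dicarboxylate carrier, was 3.69, 3.75 and 6.83 against 59.4, 58.5 and 114 (log2 fold change -3.74 ± 0.39 (SE), adjusted p = 0.0003), the lowest log2 fold change of all carriers, on few reads in the Cal libraries. The organic anion carriers of the SLCO family divided, with Slco3a1 at 1294, 1560.0 and 1524 against 3038, 3534 and 3559 (log2 fold change -1.21 ± 0.14 (SE), adjusted p = 0.000429) and Slco5a1 at -1.21 called lower and Slco2b1 at 1.40 called higher. The 2 calls lower did not hold with median-ratio scaling (-0.91 and -0.92), nor did that of Slco3a1 with quantile normalization (-0.65).

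Against Con all 7 carriers of this group were positive (6 with quantile normalization) and 4 were called higher. Of all listed genes, 60.7% were positive and 18% called higher with the authors' scaling. Slc16a11 had the highest log2 fold change of all carriers in that table, at 89.8, 104 and 129 in the Cal libraries and 12.1, 1.96 and 4.05 in the Con libraries (log2 fold change 4.21 ± 0.51 (SE), adjusted p = 0.000275), and without Con library 1 the value was 4.80. Slc16a13 was 216, 235 and 273 in the Cal libraries and 65.2, 59.9 and 92.1 in the Con libraries (log2 fold change 1.74 ± 0.20 (SE), adjusted p = 0.000211). These were the carriers in which the Cal libraries stood above both other groups and were called against each. Slc10a6 was 158, 485 and 402 in the Cal libraries and 50.3, 86.4 and 77.9 in the Con libraries (log2 fold change 2.15 ± 0.40 (SE), adjusted p = 0.00213), with Cal library 1 well below the other 2. Slc16a3, the lactate exporter MCT4, was 69.1, 112 and 91.4 against 38.2, 42.2 and 35.4 (log2 fold change 1.19 ± 0.23 (SE), adjusted p = 0.00234), which was within the fold limit with median-ratio scaling and TMM. Slc22a5, the carnitine carrier of heart muscle, was 500.4, 547 and 528 against 417, 416 and 420.1 (log2 fold change 0.33 ± 0.10 (SE), adjusted p = 0.0109), with an adjusted p of 0.355 to 0.757 under the other 3 scalings. Slco3a1, the highest of the group per kilobase, was 1447, 1749 and 1699 against 1439.6, 1164 and 1247 with 0.35 ± 0.11 (SE). With quantile normalization Slco3a1 was at -0.11.

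Nucleoside and vitamin carriers were mostly higher in the Cal than in the Model libraries, with 4 of 6 called higher and 1 lower. Of all listed genes, 28.4% were called higher and 31.6% lower, and the group is small. Slc29a1, the nucleoside carrier ENT1 that takes up adenosine, was 705, 573 and 739 in the Cal libraries and 217, 196 and 317 in the Model libraries (log2 fold change 1.48 ± 0.21 (SE), adjusted p = 0.000941). Its relative Slc29a2 was 161, 129.5 and 143 in the Cal libraries and 55.1, 25.6 and 24.9 in the Model libraries (log2 fold change 2.10 ± 0.33 (SE), adjusted p = 0.00129). Slc52a3, a riboflavin carrier, and Slc44a5, a choline carrier-like gene, were called higher at 2.08 and 1.88, both below 50 normalized counts in every library. Slc23a2, an ascorbate carrier, was called lower at 453, 478 and 477 against 815, 938 and 1188 (log2 fold change -1.04 ± 0.17 (SE), adjusted p = 0.00128), and was within the fold limit without Model library 3 (-0.90) and with quantile normalization (-0.70), median-ratio scaling (-0.75) and TMM (-0.86). Against Con 1 such carrier was listed, Slc44a1, at 785, 731 and 827 against 895, 962 and 1029 (log2 fold change -0.30 ± 0.10 (SE), adjusted p = 0.0153).

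Carriers of the SLC35 family, grouped as nucleotide sugar carriers by family number alone, numbered 4 in each table. The substrate of each single gene was not checked. Slc35g1 was called higher (1.11) and Slc35b3 lower (-1.08) between Cal and Model, and without Model library 2 both were within the fold limit at 0.94 and -0.95. Both calls were also lost with a pseudocount of 10 (0.89 and -0.95), that of Slc35g1 with quantile normalization (0.84) and that of Slc35b3 with median-ratio scaling (-0.79) and TMM (-0.89). Slc35f6 had the highest level of the 4 per kilobase, at 769, 748 and 782 against 411, 459.8 and 586 with 0.67 ± 0.16 (SE). Against Con Slc35d2 was called lower at 8.25, 5.26 and 13.3 against 23.3, 30.4 and 33.4 (log2 fold change -1.66 ± 0.39 (SE), adjusted p = 0.00479), and Slc35e1, the highest, was 2069.5, 2195 and 2099.6 against 1808, 1413 and 1675 with 0.39 ± 0.10 (SE), which turned to -0.09 with quantile normalization. Lipid carriers were represented by Slc27a4 between Cal and Model at 367, 399.8 and 401 against 243, 202 and 297 (log2 fold change 0.67 ± 0.18 (SE), adjusted p = 0.00877) and Slc27a1 against Con at 1573, 1567 and 1705 against 1265, 1285 and 1202 (log2 fold change 0.37 ± 0.08 (SE), adjusted p = 0.00379), both fatty acid transport proteins, and Slc27a1 was at -0.11 with quantile normalization.

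The symbols Slc9a3r1 and Slc9a3r2 belong to scaffold proteins of the sodium and proton exchanger rather than to carriers, and they were kept apart. Slc9a3r2 (ENSMUSG00000002504) was 1848, 1815 and 1723 in the Cal libraries and 357, 128 and 144 in the Model libraries (log2 fold change 3.25 ± 0.36 (SE), adjusted p = 0.000371), and on the same scale 1991, 2656 and 2582 in the Con libraries. The Con and Cal libraries were therefore far above the Model libraries, without a test between Con and Model, and against Con the log2 fold change was -0.41 ± 0.12 (SE, adjusted p = 0.00928). Slc9a3r1 was 150.4, 130.5 and 103 against 192, 223 and 300.0 (log2 fold change -0.88 ± 0.23 (SE), adjusted p = 0.00846). Some numbered carriers go by other symbols. Of 26 such genes 7 were listed between Cal and Model, with Sv2a, Spns2 and Mfsd12 called higher (3.24, 2.34 and 1.25) and Ucp3, a mitochondrial uncoupling protein, lower (-1.92), and 1 against Con, the heme exporter Flvcr1, called higher (1.28). Of 6 carrier chaperones and subunits 1 was listed, Fxyd1 against Con (0.48).

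Marker genes of other cell types also differed between the groups, and their part in the carriers' differences was not tested. Of 8 neutrophil markers 7 were listed between Cal and Model and all were called lower, as were 31.6% of all listed genes. Their summed level was 208 to 567 in the Cal and 25719 to 29128 in the Model libraries, most of it from Lcn2. Against Con 3 were listed and called higher, at 194 to 580 against 59.6 to 88.1. Among the carriers listed in both tables, 13 of 24 had their highest mean in the Model and their lowest in the Con libraries, among them Slc15a3, Slc2a6, Slc10a6, Slc7a11, Slc7a5 and Slc39a14. The share with this order among all 986 genes listed in both tables was not counted, so 13 of 24 cannot be called particular to carriers. Of 8 endothelial markers 6 were listed in each table. They were all positive between Cal and Model, 3 of them called, at 9920 to 12335 against 4412 to 6080, and 5 of 6 were negative against Con, 2 of them called, at 13175 to 14787 against 19588 to 22883. The mean of Slc9a3r2 rose in the order Model, Cal and Con.

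Of 8 monocyte and macrophage markers 6 were listed between Cal and Model, 2 called higher and 2 lower, with sums of 6407 to 6689 against 3223 to 4278, and 2 against Con, 1 called higher, with sums of 2001 to 2755 against 1094 to 1210. Of 8 fibroblast markers 4 were listed in each table, 2 called higher in the first (17378 to 21126 against 15696 to 22941) and 1 lower in the second (9550 to 12371 against 14389 to 16008). Smooth muscle and pericyte markers gave 2 and 4 of 6, none of them called, positive in the first (3194 to 3440 against 2079 to 2306) and negative in the second (13894 to 15366 against 18882 to 22165). Erythroid markers were listed against Con only, 4 of 6 and 1 called higher (11104 to 14863 against 6643 to 10394), adipocyte markers between Cal and Model only, 2 of 6 and both called higher (4685 to 6240 against 1984 to 2855), and T and B cell markers in neither. Heart muscle markers summed to 360759 to 362832 against 267192 to 338084 in the Cal and Con table, and Nppa alone to 622 to 896 against 988 to 2363 in the other. No listed marker was at 0 in all libraries of a table.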

How the data were processed

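Total RNA of 9 hearts, 3 per group, was sequenced. According to the Methods of the study, the authors mapped paired-end reads on the rat reference, obtained a read count for each gene and used DESeq2, whereas the submitters' processing notes name Bowtie 0.12.2 and the mouse builds mm8 and mm9, and the identifiers and chromosomes in the tables are mouse Ensembl. The signal deposited for a library is each gene's count over that library's size factor, and whole reads were recovered from 100% of the values (tolerance 0.001 reads). The deposited group means, log2 fold changes, p-values and adjusted p-values are the authors' own and were not used, and the deposited gene length is in bases. Only listed genes have values, so full depth is unknown and intervals cover counting error only.

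Libraries were grouped by the labels and matched to sample columns by heading. Differences were tested with limma 3.58.1 (R 4.3.3, trended prior variance) on log2(normalized count + 1), which understates changes of low genes, for each table alone, with Benjamini-Hochberg adjustment over all its listed genes and no filter. This was the unit that the design had set for normalized values. The replicates are different animals. The recovered reads were also tested with DESeq2 1.42.0 and edgeR 4.0.16. These and other pseudocounts, scalings and filters, other thresholds, a replicate block and leaving out each library were the alternatives. Fits were tested on simulated data.

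The members, substrate groups and gene lists were chosen with earlier results of these data known. Substrate groups follow the SLC family numbers. Named genes are the 5 highest and 5 lowest called members per table with no overlap whose higher group averaged 100 or more, members called in both tables, 30 carriers of heart biology where listed, and the highest member per kilobase of each group. Other genes named were picked after their values were seen. In the Cal and Con table only 1 gene met the rule among the lowest, Slc25a24. 1 gene matching the symbol pattern was left out of all counts, and values of a few other genes are not reported here. Promoters are from RefSeq (GRCr8).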

Additional observations from a re-analysis of the deposited data

How the results depend on the processing

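Without the fold change limit, 47 carriers passed as higher and 39 as lower between Cal and Model, in place of 22 and 26. Against Con, 46 passed as higher and 12 as lower, in place of 10 and 6. These were all 86 and all 58 listed carriers, since genes were listed only after passing the study's own adjusted p-value threshold. Of all 4288 listed genes, 1971 passed as higher and 2301 as lower between Cal and Model. Of all 2458 against Con, 1490 and 964 did, so passing was largely fixed by the listing. Leaving out each library in turn gave 22 to 27 higher and 25 to 28 lower between Cal and Model, and 9 to 10 higher and 4 to 6 lower against Con. The other counts of calls stayed within 1.5 times of these under every alternative run. The same held for edgeR with the authors' size factors, an alternative chosen after seeing the data, and for DESeq2, with 22 higher and 27 lower, and 10 higher and 6 lower.

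Quantile normalization turned the direction of 13 single values, none of them beyond the fold limit. Slc41a1 turned to 0.0924 between Cal and Model. Against Con, Slc20a2 turned to -0.192, Slc25a11 to -0.0907, Slc25a20 to -0.174, Slc25a34 to -0.0442, Slc25a42 to -0.0871, Slc25a5 to -0.148, Slc27a1 to -0.108, Slc2a4 to -0.0141, Slc35e1 to -0.0946, Slc41a1 to -0.0535, Slc41a3 to -0.0508 and Slco3a1 to -0.105. By construction this scaling gives all libraries 1 distribution of listed genes. Against Con, 28 of 58 carriers kept their direction but lost the adjusted p with TMM, 29 with median-ratio scaling and 15 with quantile normalization. Between Cal and Model the numbers were 7, 9 and 4 of 86.

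With the replicate number as a block, 22 carriers were higher and 26 lower between Cal and Model, and 10 and 6 against Con, and no carrier's call changed. The deviations of same-numbered libraries correlated at -0.119 to 0.11 in the first table and -0.14 to -0.0235 in the second, so the numbers did not pair the animals.

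With 3 libraries per group and tables limited to selected genes, carriers that are not listed were not analysed here, and the conflict of headings leaves the names of the Cal and Model libraries unsettled. Low counts limit several carriers, among them Slc6a4, Slc6a12, Slc7a11, Slc12a8, Slc13a3, Slc16a11, Slc38a11, Slc39a2, Slc44a5 and Slc52a3.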
